A study of Mus musculus with 20 samples.

Results

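By the authors' annotation, the m6A peaks described here lay in 1 exon that was neither the first nor the last of its transcript. Each consisted of 1 unbroken block. Exon models were not used here, so whether each peak stays within its exon was not checked. They were chosen from the authors' deposited tables of peaks for invariant natural killer T (iNKT) cells and for CD4 and CD8 double-positive (DP) thymocytes. A peak was taken where the authors' annotation placed it in exon X of Y, with X above 1 and below Y, and where it consisted of 1 block; repeated coordinates were kept once. This gave 3466 distinct peaks of 25960 in all, with 5 identical in both tables. The iNKT table held 1570 of them among 12542 peaks (12.5%), in 1065 host genes, and the DP table held 1901 among 13450 peaks (14.1%), in 1258 host genes. A host gene is the gene whose identifier stands in the annotation of the exon. Both tables had such a peak in 543 genes, which is 51% of the iNKT host genes and 43.2% of the DP host genes.

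The study compared Mettl3fl/flCD4-cre mice, in which a Cre recombinase driven by Cd4 control elements removes floxed Mettl3, with WT C57BL/6 mice, all aged 6 to 8 weeks. Thymic iNKT cells (7AAD-, CD1d tetramer+, TCRbeta+) gave 3 m6A and 3 input libraries from each genotype. DP cells (7AAD-, CD1d tetramer-, CD4+CD8+) gave 2 m6A and 2 input libraries from each genotype, for 20 libraries in all. CD4-cre acts from the double-positive stage on, so protein and marks made earlier may still be present in these cells, and iNKT cells descend from DP cells that carried the same deletion. The labels name both m6A-seq and a low-input form based on LACE-seq, without saying which was used for which cell type, so cell type and protocol cannot be told apart. The deposited tables hold 1 value per peak and comparison and none per library: the depth is unknown, replicates cannot be compared, and how far the authors' p-values take in variation between mice is unknown. All 7 iNKT marker genes checked had a peak in the iNKT table, and 2 of 7 had one in the DP table. Of 8 DP marker genes, 4 had a peak in the iNKT table and 5 in the DP table. A peak needs both transcript and mark, so this checks the labels only loosely. Mettl3 had no peak in either table, and the deletion could not be checked.

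N6-methyladenosine is placed on nuclear RNA by a writer complex around METTL3 and METTL14, mostly at adenosines within a short consensus built around GGAC. The mark is found above all near stop codons, in 3' untranslated regions and in long internal exons. In mammalian cells exon junction complexes, which sit close to splice sites, keep the writer away from nearby RNA, so that short internal exons stay largely unmarked while the writer can reach the inside of a long internal exon. Reader proteins of the YTH family bind the mark and direct decay, splicing or translation of the transcript.

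Sequence under these peaks was available where a peak shared bases with a RefSeq start-site window or microRNA hairpin (RefSeq, GRCm38.p6). Of 11 such stretches 6 held GGAC and 5 did not. They are not all distinct. The Mir671 hairpin in Chpf2, without GGAC, was listed repeatedly and on both strands, and overlapping stretches of Klf7, with GGAC, came from both cell types. Shown are 5, among them those of the peaks that were lower with Mettl3 deletion (Akna, Cic). The other 3 are of peaks that did not pass, with GGAC (Klf7, Dgcr8) and without it (Lck). Each stretch shown is read 5′ to 3′ on the strand of its peak, and capitals mark GGAC, the only motif searched, on that strand alone. Akna encodes an AT-hook protein of lymphoid cells and of centrosomes. The stretch of Akna is chr4:63395064-63395363, minus strand, within the iNKT peak chr4:63394731-63395538 in exon 3 of 22.
Akna: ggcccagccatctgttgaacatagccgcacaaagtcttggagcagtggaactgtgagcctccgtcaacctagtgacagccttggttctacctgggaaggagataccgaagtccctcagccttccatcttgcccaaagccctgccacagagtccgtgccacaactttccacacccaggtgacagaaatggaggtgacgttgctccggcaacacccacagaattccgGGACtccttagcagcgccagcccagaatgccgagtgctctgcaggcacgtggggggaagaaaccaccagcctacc
Cic encodes a transcriptional repressor of the HMG-box family that restrains growth-factor response genes. The stretch is chr7:25270893-25271087, plus strand, from the 5′ part of the iNKT peak chr7:25270893-25271372 in exon 2 of 21.
Cic: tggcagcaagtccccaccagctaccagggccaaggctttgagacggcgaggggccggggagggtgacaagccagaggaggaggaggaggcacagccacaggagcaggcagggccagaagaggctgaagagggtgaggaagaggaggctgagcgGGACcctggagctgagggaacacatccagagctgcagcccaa
Klf7 encodes a zinc-finger transcription factor. The stretch is chr1:64079081-64079200, minus strand, from the DP peak chr1:64078722-64079200 in exon 2 of 4, which the authors' annotation names Mir6899.
Klf7: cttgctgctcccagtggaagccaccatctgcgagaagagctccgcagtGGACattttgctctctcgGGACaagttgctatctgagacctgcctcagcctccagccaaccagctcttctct
Dgcr8 encodes the RNA-binding partner of Drosha in microRNA processing. Its iNKT peak in exon 2 of 14, chr16:18284092-18284361, holds the whole hairpin of Mir1306 (chr16:18284239-18284317, minus strand), after which the authors' annotation names it.
Dgcr8: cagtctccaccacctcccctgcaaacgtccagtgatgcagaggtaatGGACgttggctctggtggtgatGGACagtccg
Lck encodes the kinase that starts T cell receptor signalling. Its iNKT peak (chr4:129557683-129557811, minus strand) was placed in exon 3 of 13 by the annotation. The peak has exactly the coordinates of the Mir8119 hairpin, after which the authors' annotation names it.
Lck: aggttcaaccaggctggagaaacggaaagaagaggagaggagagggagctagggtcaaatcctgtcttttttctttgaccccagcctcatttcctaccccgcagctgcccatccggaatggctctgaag
GGAC occurred 1 time in the Akna stretch, where it reads on as GGACT, and 1 time in the Cic stretch. It occurred 2 times in the Klf7 stretch, 2 times in the Dgcr8 stretch and 0 times in the Lck stretch. In the whole RefSeq table of 32851 start-site windows, 66.1% held GGAC in the full window, 50.9% in a slice as long as that of Cic and 35.3% in one as long as that of Klf7. Of 997 mouse hairpins 24.5% held it. A GGAC in a stretch of this length is therefore common, and its presence describes the sequence only. The authors' deposited table gave the Akna peak a log2 fold change equal to -3.69 (FDR 2.0e-21) and the Cic peak -4.44 (FDR 5.0e-22). The authors' deposited table gave 0.255 (FDR 0.62) for the Klf7 peak in DP cells and 0.12 (FDR 0.76) and -0.637 (FDR 0.76) for the Dgcr8 and Lck peaks in iNKT cells.

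The values below are the authors' own: a fold enrichment of m6A immunoprecipitate over input for each peak, on a linear scale, and the log2 fold change in m6A between the genotypes with its false discovery rate (FDR). The sources used here do not state which genotype is on top of the fold change. Negative values are read as likely lower in Mettl3-deleted cells, on the assumption that the authors' gene lists hold genes that lost m6A. The deposited iNKT gene list holds 5339 of 5343 genes with a negative peak and 0 of 1431 without one. The DP list holds 4336 of 4337 and 0 of 2281. The lists thus follow the negative sign, but they name no genotype and would look the same in either direction. A peak passed at an FDR of 0.05 or less, and lower and higher are written of peaks that passed, in this likely direction. Shares carry Wilson 95% confidence intervals, which cover counting of peaks only, since peaks are not replicates.

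In iNKT cells the internal-exon peaks moved mainly down. In the authors' deposited table, 353 of 1570 (22.5%, 20.5% to 24.6%) were lower with Mettl3 deleted, in 281 host genes. Over all iNKT peaks 19.8% were lower. The higher peaks numbered 87 (5.54%, 4.51% to 6.79%), in 84 host genes, against 5.84% of all peaks. Lower peaks thus made up 80.2% of the 440 that passed (76.3% to 83.7%), and 12 genes carried both kinds. The shares lie near those of the whole table. Their median log2 fold change was -1.04 in the authors' deposited table (95% interval -1.18 to -0.938, quartiles -2.49 and 0.222), against -0.976 for all peaks and -0.874 for the other 1-block peaks. The median of the lower peaks was -3.61 and that of the higher peaks 4.36 in the authors' deposited table.

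Peaks of several blocks, which span a junction, were lower more often than 1-block peaks of the same position in the authors' deposited table. In internal exons the shares were 22.5% for 1-block peaks and 40.4% for peaks of several blocks (316 of 783), and in 3' untranslated regions 20.2% and 46.3% (199 of 430). Peaks in 5' untranslated regions and first exons were lower in 13.8% of cases each, and those in last exons in 11.1%. Strength of the peak differed between these classes too: the median log10 peak FDR was -18.5 for 1-block and -43.1 for several-block peaks in internal exons, and -19.3 and -87.4 in 3' untranslated regions. The part of peak strength and length in these shares was not tested.

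In DP cells almost none of the internal-exon peaks passed. Of 1901, 7 (0.368%, 0.178% to 0.758%) were lower and 1 (0.0526%, 0.00929% to 0.297%) was higher in the authors' deposited table, against 0.743% and 0.483% of all DP peaks. Junction-spanning internal-exon peaks were lower in 47 of 1813 (2.59%). The median log2 fold change of the 1-block peaks was 0.0081 in the authors' deposited table (95% interval -0.0124 to 0.0429, quartiles -0.404 and 0.477), and 48.3% had a negative value, against 70.3% in iNKT cells. The plot of log2 fold changes by cell type shows the wide, left-shifted iNKT distribution beside the narrow DP one. The tables were made separately, from different numbers of libraries, and the difference between cell types was not tested.

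**Figure D1:**
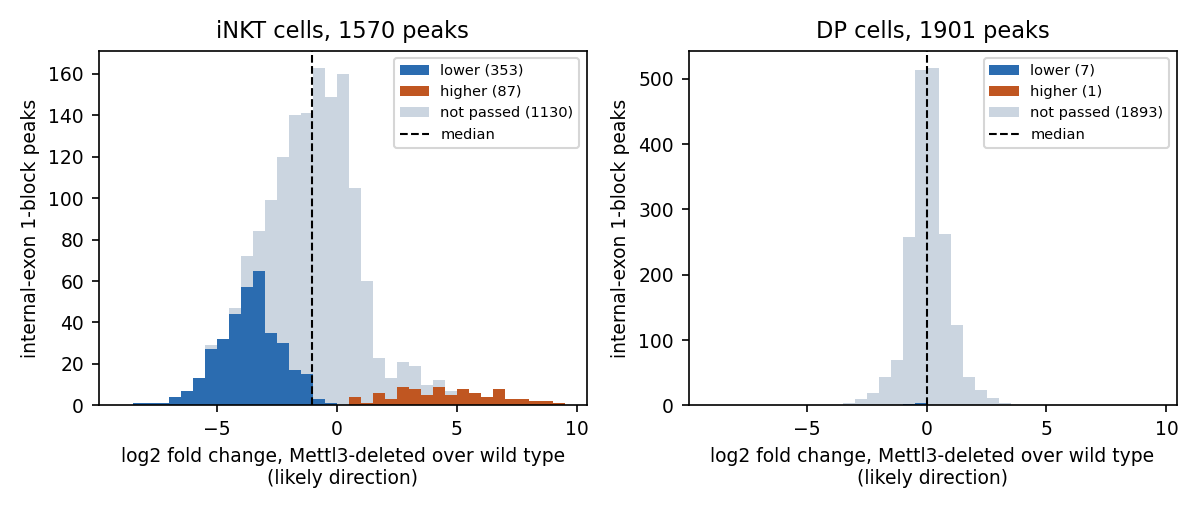
Histograms of the authors' log2 fold change (Mettl3-deleted over wild type, likely direction; bins of 0.5) of internal-exon 1-block peaks in iNKT cells (left, 1570 peaks) and DP cells (right, 1901 peaks), with peaks that passed as lower (blue) or higher (orange) and those that did not pass (grey). Dashed lines mark the medians, -1.04 in iNKT cells and 0.0081 in DP cells; 353 lower and 87 higher peaks stand out in iNKT cells, against 7 and 1 in DP cells.

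The share of lower iNKT peaks went with peak length. The median length was 181 nt (quartiles 121 and 270, range 59 to 1379). Of 349 peaks of up to 120 nt, 4.58% were lower and 7.16% higher in the authors' deposited table. From 121 to 200 nt 11.7% of 521 peaks were lower, and from 201 to 300 nt 26.8% of 429. From 301 to 400 nt 52.1% of 142 peaks were lower, and from 401 to 600 nt 59.8% of 87. Above 600 nt 35 of 42 peaks (83.3%, 69.4% to 91.7%) were lower and 0 were higher, and the authors' deposited table gave them a median log2 fold change of -3.67. The other 1-block iNKT peaks climbed in the same way, with 1.88%, 5.94%, 23.7%, 42.4%, 56.4% and 71.8% lower over the 6 classes of length, so the gradient is not particular to internal exons. Longer peaks also stood higher over input, with median fold enrichments of 2.94 up to 120 nt and 33.7 above 600 nt. A longer peak can hold more reads, and read counts per peak were not analysed here, so the part of read number in this gradient was not tested.

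**Figure D2:**
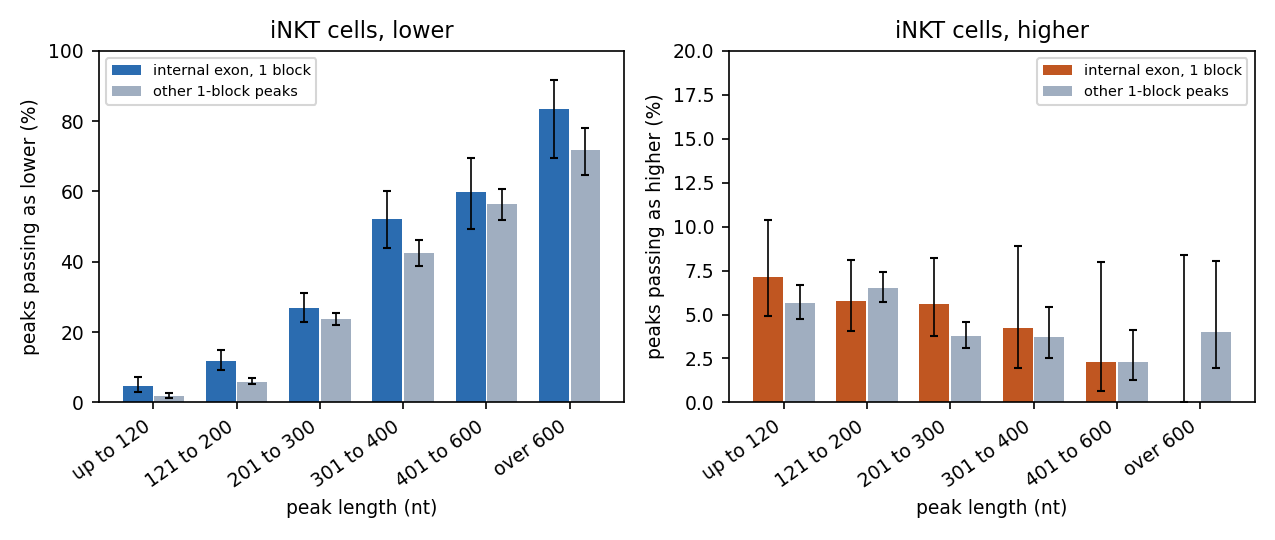
Share of iNKT peaks (%) that passed as lower (left) and higher (right, on a shorter axis) by peak length in nt, for internal-exon 1-block peaks (coloured) and all other 1-block peaks (grey); bars are shares and error bars Wilson 95% intervals. The lower share of internal-exon peaks climbs over the 6 classes, 4.58% up to 120 nt and 83.3% above 600 nt, while the higher share goes the other way, 7.16% and 0%.

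Fold enrichment told lower and higher iNKT peaks apart less evenly. The median over input was 5.88 (quartiles 3.24 and 13.7, highest 704), against 8.32 for all iNKT peaks and 9.02 for the other 1-block peaks. Lower peaks made up 27.5% of members below 2-fold, 15.3% from 2 to 4, 19.1% from 4 to 8, 26.1% from 8 to 16, 31.9% from 16 to 32 and 30.3% at 32 or above. Higher peaks took a larger share of weak peaks, with 9.17% below 2-fold and 1.12% at 32 or above. In the other 1-block iNKT peaks the lower shares were 21.3%, 12.5%, 11.7%, 14.4%, 18.8% and 26.9% over the same 6 classes. Their higher shares were 11% below 2-fold and 2.26% at 32 or above, so these patterns are not particular to internal exons. DP members had a median enrichment of 4.32 (quartiles 2.67 and 7.87, highest 61.7), against 4.7 for all DP peaks, and a median length of 240 nt.

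The share of lower peaks varied little with place along the transcript. Among iNKT members the median exon number was 6 and, taken separately, the median number of exons in the transcript was 13. Their median rank in the exon order, scaled between the first and the last exon, was 0.5. Of the iNKT members 307 (19.6%) lay in exon 2. Lower shares were 21.5% in exon 2, 21.7% in exon 3, 22.3% in exons 4 to 10 and 23.7% from exon 11 on. With the exon order cut into 3 equal parts they were 22.7%, 22.9% and 21.9%, with intervals that overlapped. Next-to-last exons held 257 members, 18.7% of them lower (14.4% to 23.9%). Among DP members the separate medians were exon number 5 and 13 exons, with a median scaled rank of 0.471, and 398 (20.9%) lay in exon 2.

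The smallest FDR among the iNKT members was that of Hsp90ab1, a constitutive chaperone gene, in exon 6 of 11 (chr17:45570336-45570636, mm10), with a log2 fold change of -3.03 and a log10 FDR of -434 in the authors' deposited table at a modest enrichment of 3.64. Tnfaip3, which encodes A20, a ubiquitin-editing inhibitor of NF-kappaB, carried an 810 nt peak in exon 7 of 9 (chr10:19004378-19005187) with 171-fold enrichment; its log2 fold change was -4.25 and its log10 FDR -309 in the authors' deposited table. Ppp1r15a, which encodes GADD34, a phosphatase subunit that restores translation after stress, had -4.24 (FDR 2.0e-75) in exon 2 of 3 in the authors' deposited table. Rcsd1, whose peak was named after its neighbour Mpzl1 by the authors, had -3.09 (FDR 1.0e-103), and Pelp1, a coregulator gene of nuclear receptors, -5.0 (FDR 4.0e-63) in the authors' deposited table. These peaks were all at least 301 nt long, well above the median member.

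The 6 largest falls included genes of transcription factors and chromatin enzymes. Zbtb16, the gene of the iNKT master regulator PLZF, gave the most negative member, -8.43 (FDR 3.2e-60) in exon 2 of 7 at 177-fold enrichment in the authors' deposited table; the DP table had no Zbtb16 peak at all. Kmt2d, a histone H3 lysine 4 methyltransferase gene, followed with -7.74 (FDR 1.6e-23) over 721 nt of exon 35 of 55 in the authors' deposited table. Next in the authors' deposited table were Bcl9l, a Wnt coactivator gene (-7.35, FDR 1.0e-53), and Zc3h13, which encodes a subunit of the m6A writer complex itself (-6.97, FDR 6.3e-56). Usp10, a deubiquitinase gene (-6.94, FDR 6.6e-07, 268-fold enrichment), and Tnrc6c, a scaffold of microRNA silencing (-6.58, FDR 1.0e-15), completed the 6 largest falls in the authors' deposited table.

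The peaks most enriched over input were not all among those that passed. Kdm6b, an H3 lysine 27 demethylase gene, carried the most enriched member, a 361 nt peak at 704-fold in exon 11 of 23, and the authors' deposited table gave it a log2 fold change of -4.08 (FDR 2.5e-27). A second peak of the same exon, 1170 nt long and 160-fold enriched, had -2.95 (FDR 2.5e-69) in the authors' deposited table. Podnl1, at 213-fold, had -5.69 (FDR 5.2e-05) in the authors' deposited table. Rpgrip1 (337-fold), Bicra (237-fold) and Ttbk1 (235-fold, named Slc22a7 by the authors) had -3.91, -1.18 and -5.43 by the authors' deposited table, without passing. Of the 6 longest members, 5 passed as lower, among them the second Cic peak, 1168 nt of exon 2 of 21 (-3.66, FDR 2.0e-17), and Mideas, a histone deacetylase scaffold gene (-4.08 over 930 nt, FDR 1.3e-56), in the authors' deposited table.

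Several of the most extreme higher iNKT peaks were short and weakly enriched. Ctsa, a lysosomal carboxypeptidase gene, had 8.56 (FDR 1.0e-109) over 121 nt at 1.6-fold enrichment in the authors' deposited table. Srsf2, a splicing factor gene, had 3.41 (FDR 5.0e-82) at 1.77-fold in exon 2 of 3 in the authors' deposited table. The largest rise, 9.2 (FDR 6.3e-21) in the authors' deposited table, was that of Eml3, over 60 nt at 1.69-fold enrichment. Ftsj1 (8.98) came before Ctsa, and Dtx1 (8.46), Prpsap1 (8.17) and Dnajc11 (7.95) after it in the authors' deposited table, and of these Dtx1 and Prpsap1 were 61 nt long. Longer higher peaks existed too: Tnrc6b exon 22, 210 nt at 7.45-fold, rose by 7.0 (FDR 1.0e-49), and Foxo3 exon 3, 241 nt at 6.58-fold, by 5.94 (FDR 5.0e-33) in the authors' deposited table. Foxo3 encodes a forkhead factor of quiescence and survival. Slc39a7 was listed as 2 overlapping peaks (5.31 and 5.34 by the authors' deposited table), which share bases and describe 1 region.

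Of the 8 DP members that passed, 6 changed by less than 1 on the log2 scale. Tpt1, which encodes the translationally controlled tumour protein, had -0.314 (FDR 0.00023) in the authors' deposited table. Hspa8, a chaperone gene, had -0.422 (FDR 0.03) and Edf1, a transcriptional coactivator gene, -0.652 (FDR 0.012) in the authors' deposited table. Sp110, an interferon-induced nuclear body gene, had -0.408 (FDR 0.032) and Il2rg, which encodes the shared gamma chain of cytokine receptors, -0.589 (FDR 0.047) in the authors' deposited table. These 5 peaks were at most 1.97-fold enriched over input. Falls of over 1 were those of Atad5, a replication-clamp unloader gene (-4.17, FDR 0.03), and AI662270 (-1.74, FDR 0.019) in the authors' deposited table. The 1 higher peak lay in Rai1 (0.6, FDR 0.029). Among the most enriched DP members, Suco (61.7-fold), Usp35 (51.2-fold), Bahcc1 (44.8-fold) and Mga (43.9-fold) did not pass, and the longest, 3053 nt of Srrm2 exon 11 and 2938 nt of Atrx exon 9, had -0.109 and 0.186 in the authors' deposited table.

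Many internal exons carried several peaks, which spanned a median of 1031 nt in iNKT cells and 1140 nt in DP cells. After overlapping listings were joined, 193 of 1227 iNKT exons held at least 2 members, and these held 502 members (32.7%). The corresponding DP values were 239 of 1483 exons and 630 members (33.6%). Within such an iNKT exon the log2 fold changes spanned a median of 2.15, against 0.892 in DP cells. Of all iNKT peaks that passed, 77.2% were lower. In 34 iNKT exons at least 2 members passed: all passing members were lower in 29 of them, none had only higher ones, and 5 held both signs. These 5, in Acin1, Klf4, Per1, Rhobtb2 and Tex2, were picked out after their values were seen. In exon 6 of 19 of Acin1, an exon junction complex cofactor gene, a 301 nt peak had -3.89 (FDR 4.0e-67) and a 181 nt peak 4.02 (FDR 7.9e-40) in the authors' deposited table. Members of 1 exon share a transcript and are not independent.

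Spen, Son and Rai1 show such exons in both cell types. Spen, a large transcriptional corepressor gene known for its part in X inactivation, had 13 iNKT members over 7405 nt of exon 11 of 15. The log2 fold changes ran between -4.01 and 2.84, and 5 peaks were lower in the authors' deposited table. These were the first 3 in 5′ to 3′ order (-3.6, -2.37 and -3.6), the eighth (-2.38) and the twelfth (-4.01, FDR 4.8e-09, 44.3-fold enrichment). The 6 DP peaks of the same exon ranged between -0.0989 and 0.831 in the authors' deposited table and none passed. Son, which encodes a scaffold of nuclear speckles, had 6 iNKT peaks in exon 3 of 12, and 5 were lower (-1.04, -1.56, -3.53, -2.99 and -4.95, the last with FDR 6.3e-56) in the authors' deposited table. Its 5 DP peaks lay between -0.104 and 0.292 in the authors' deposited table. Rai1, which encodes a chromatin-associated regulator of the circadian clock, had 6 iNKT peaks in exon 3 of 6, all negative, with 2 lower (-5.84, FDR 1.9e-09; -2.16, FDR 6.9e-06) in the authors' deposited table. Its 5 DP peaks were all positive, 0.107 to 0.6, and the last one passed. Of all iNKT peaks 19.8% were lower and 68.6% had a negative value. Of all DP peaks 0.743% were lower, 0.483% higher and 49.7% negative.

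**Figure D3:**
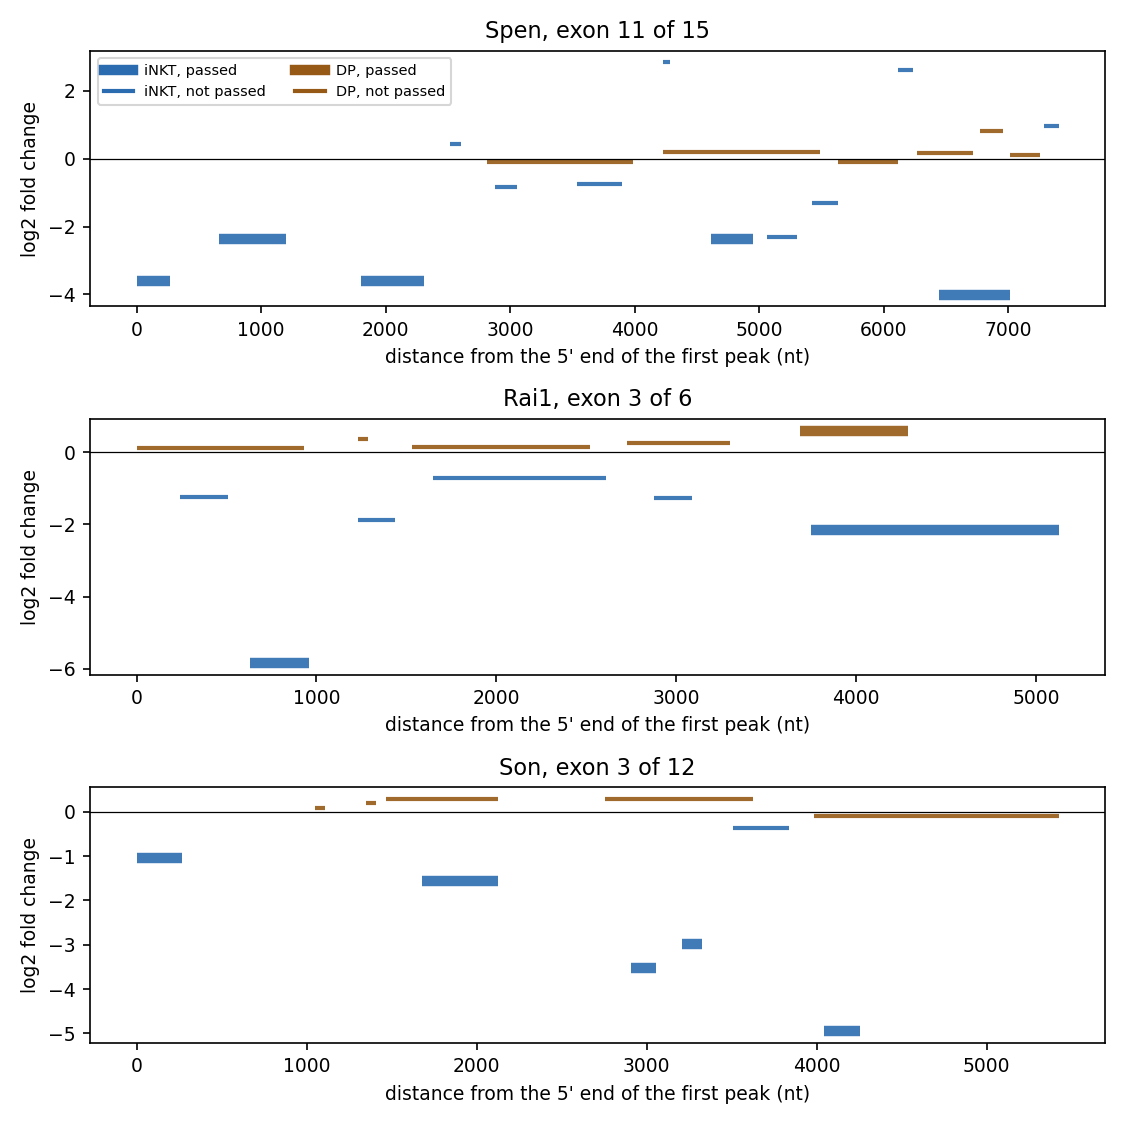
Log2 fold change (vertical axis) of each member peak along 1 internal exon of Spen, Rai1 and Son, drawn as a bar over its distance in nt from the 5′ end of the first peak; blue is iNKT cells, brown is DP cells, and thick bars passed. The iNKT peaks of Son and Rai1 all lie below 0, those of Spen on both sides, and the DP peaks near 0.

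Chromatin regulators held the most members of the 9 lists examined. Of 42 listed genes 27 had a member in iNKT cells, 78 peaks in all. Of these peaks 31 (39.7%) in 18 genes were lower, against 22.5% of all iNKT members and 19.8% of all iNKT peaks. Another 5 in 4 genes were higher, against 5.54% of all iNKT members and 5.84% of all iNKT peaks. The median log2 fold change of the 78 was -1.98 in the authors' deposited table, against -0.976 for all peaks. Kmt2b had 3 lower peaks in exon 3 (-3.28, -5.49 and -6.29) in the authors' deposited table. Crebbp, a histone acetyltransferase gene, had -3.87 at 116-fold enrichment in exon 2 in the authors' deposited table, and its paralogue Ep300 had -5.25 in exon 28 of 31. Chd4, a remodelling ATPase gene, had -5.77, and Kdm2a, an H3 lysine 36 demethylase gene, -5.76 in the authors' deposited table. The higher peaks lay in Tet2 (3.71), Ash1l (2.93), Kmt2d (1.51) and Setd1a (0.87 and 0.846, overlapping listings) in the authors' deposited table. In DP cells 33 of the genes had 92 member peaks, of which 0 passed, against 0.743% lower and 0.483% higher among all DP peaks, with a median of 0.0542 in the authors' deposited table.

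Genes of splicing and RNA processing had 25 iNKT members in 9 genes. Of these members 14 were lower (56%, against 22.5% of all iNKT members and 19.8% of all iNKT peaks). Another 2 were higher, against 5.84% of all iNKT peaks. The lower peaks lay in 7 genes (Acin1, Prpf4b, Son, Srrm2, Thoc2, Tnrc6b, Tnrc6c). Of the 14 lower peaks, 5 lay in the same exon of Son and 3 in the same exon of Tnrc6c. The median of the 25 members was -1.92 in the authors' deposited table. The 3 lower peaks of Tnrc6c lay in 1 exon, exon 5 of 22 (-6.58, -4.73 and -4.03 by the authors' deposited table). In DP cells 17 members in 8 genes of this list did not pass, against 0.743% lower and 0.483% higher among all DP peaks.

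Thymocyte and iNKT transcription factors had 13 iNKT members in 10 of 29 genes, 5 of them lower (38.5%) and 4 higher. Of all iNKT peaks 19.8% were lower and 5.84% higher, and of all iNKT members 22.5% and 5.54%. Lower peaks lay in Zbtb16, Foxo1 (-5.24), Nfatc1 (-5.05), Myc (-4.58) and Zbtb7b (-2.83), the gene of ThPOK, in the authors' deposited table. Higher peaks lay in Foxo3 (5.94), Nfatc1 (4.76), Gata3 (3.4) and Satb1 (0.7) in the authors' deposited table. In Nfatc1, an effector of calcium signalling, the lower peak was in exon 2 and the higher in exon 9 of 10. Foxo1 and Foxo3, paralogous genes, passed in opposite directions, and a further Foxo3 peak had -1.97 without passing in the authors' deposited table. In DP cells 12 members in 8 genes did not pass, against 0.743% lower and 0.483% higher among all DP peaks. Those in Foxo1 and Satb1 had 0.506 and 0.167 in the authors' deposited table.

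T cell receptor signalling genes had 9 iNKT members in 7 of 26 genes, 2 lower (22.2%) and 2 higher. The shares over all iNKT peaks were 19.8% lower and 5.84% higher. Beside Nfatc1, Lck was lower in exon 9 (-1.82, FDR 2.0e-19), and Cbl, a ubiquitin ligase gene, was higher over 61 nt (4.51) in the authors' deposited table. Cytokine receptor and JAK-STAT genes had 0 members in iNKT cells, although 18 of the 27 genes had some peak. In DP cells they had 4, with Il2rg the 1 that passed, against 0.743% lower and 0.483% higher among all DP peaks.

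The m6A machinery itself held few members. In iNKT cells these were Zc3h13 (-6.97 in exon 15 and -0.109 in exon 14), Virma (0.807) and the reader gene Ythdf1 (-1.4) in the authors' deposited table, and of these the exon 15 peak alone passed. In DP cells Virma had 3 and Ythdf1, Ythdf2 and Ythdc1 had 1 each. None passed, against 0.743% lower and 0.483% higher among all DP peaks.

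DNA replication and repair genes had 9 iNKT members in 7 genes, of which 0 passed. Among all iNKT members 22.5% were lower and 5.54% higher, and among all iNKT peaks 19.8% and 5.84%. The median of the 9 members in the authors' deposited table was -1.3 (log2). In DP cells 22 members in 9 genes had a median enrichment of 8.56, against 4.32 for all DP members. Of the 22, 1, in Atad5, passed as lower, against 0.743% of all DP peaks. Genes known for a very long internal exon had 14 iNKT members in 7 of 9 genes. Of these, 6 were lower (42.9%, in Atrx and Bod1l) and 1 higher (Ash1l, 2.93) in the authors' deposited table. Over all iNKT peaks 19.8% were lower and 5.84% higher. The lower peaks lay in exons 9 and 15 of Atrx and exons 4 and 10 of Bod1l, and exon lengths were not analysed. The 28 DP members of these long-exon genes had a median enrichment of 7.3. None passed, against 0.743% lower and 0.483% higher among all DP peaks. The lists overlap, so some peaks were counted in more than 1 list. Atrx and Ash1l are also among the chromatin regulators, and Brca2, Casp8ap2, Mki67 and Rif1 among the replication and repair genes. No list was tested against another, and lists differ in peak length and strength.

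Many internal-exon peaks were found at overlapping places in both cell types. Of the 1570 iNKT members 900 (57.3%, 54.9% to 59.8%) shared at least 1 base on the same strand with a DP peak. The share was 53.5% (50% to 57%) for junction-spanning internal-exon iNKT peaks and 40.5% for the other 1-block iNKT peaks. The DP peak sharing most bases was itself a member for 608 of the 900 (67.6%) and spanned a junction for 173 (19.2%). Of the 1901 DP members 643 (33.8%, 31.7% to 36%) met an iNKT peak. The share was 24.9% for junction-spanning internal-exon DP peaks and 39.4% for the other 1-block DP peaks. iNKT members that met a DP peak were lower in 34.1% and higher in 3.11% of cases. Those that met none were lower in 6.87% and higher in 8.81%. The shares of all iNKT peaks were 19.8% and 5.84%. This split was made for members only, so whether other peaks differ in the same way is not known. The overlapped members were longer (median 211 nt, against 151 nt), and their peak FDR was smaller (median log10 -37.8, against -7.95), and the part of these in the contrast was not tested.

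In 540 pairs of 1 iNKT and 1 DP member, levels and changes showed little relation. Spearman's rho across pairs was 0.0697 for fold enrichment and -0.0483 for log2 fold change, as a description across peaks that share libraries and host genes. Median enrichment was 6.78 in iNKT cells and 4.88 in DP cells, with the iNKT value higher in 324 pairs. Median log2 fold change was -1.4 in iNKT cells and 0.112 in DP cells in the authors' deposited tables. Of 161 pairs lower in iNKT cells, the DP members had a median of 0.101, ranged between -2.34 and 1.75, and were negative in 61. The 1 pair that passed in both tables was in Rai1, and the signs were opposite. Cic and Usp10, deep falls in iNKT cells, had positive DP values that did not pass, 0.985 (FDR 0.056) and 1.73 (FDR 0.079) in the authors' deposited table.

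**Figure D4:**
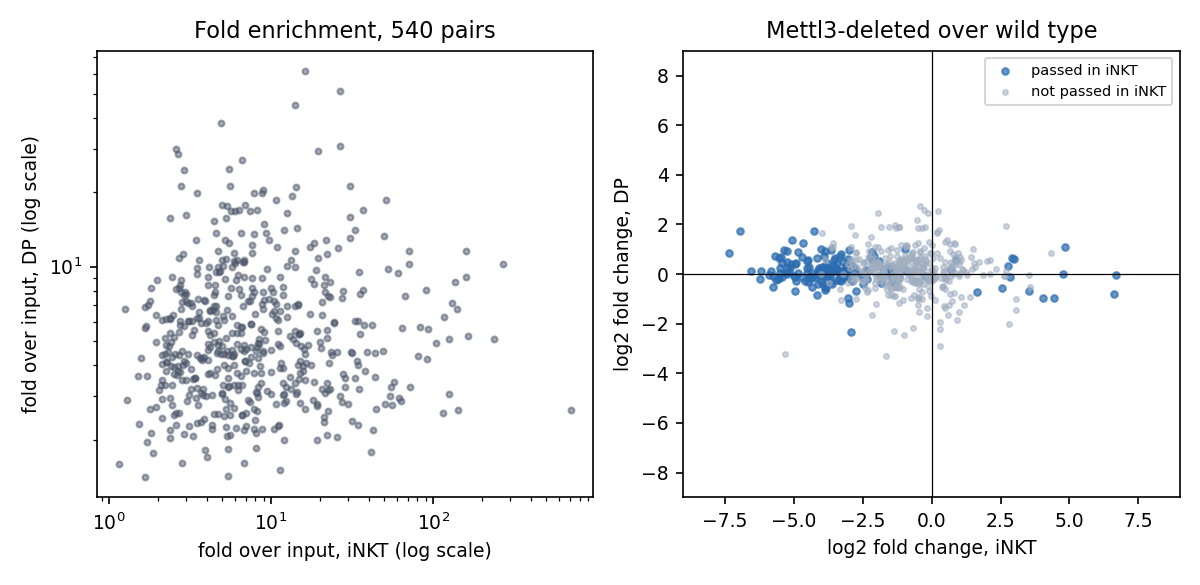
The 540 pairs of overlapping internal-exon peaks, with fold over input in iNKT cells against DP cells on log scales (left) and log2 fold change in iNKT cells against DP cells (right; blue points passed in iNKT cells). Points scatter without a trend in both panels (rho 0.0697 and -0.0483), and the right panel spreads along the iNKT axis far more than along the DP axis.

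Some members describe 1 region more than once or on both strands. Among iNKT members 24 pairs overlapped on the same strand and 12 on opposite strands, and among DP members 19 and 8. Joining them left 1536 iNKT members, 348 lower and 85 higher, and 1874 DP members, 7 lower and 1 higher. Chpf2, for example, was listed on both strands over the hairpin of Mir671, with log2 fold changes of -2.51 and -2.53 (FDR 0.41 each) in the authors' deposited table. The host gene differed from the gene the authors' annotation names for 212 iNKT and 209 DP members.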

How the data were processed

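m6A was measured by immunoprecipitation and sequencing in DP and iNKT cells of both genotypes, with an input library for each m6A library. The submitters' processing notes list, with build mm10, HOMER 4.9.1, RSEM 1.3.0, STAR 2.6.0a, Trim Galore 0.6.5 and FastQC 0.11.5. The names and columns of the deposited tables are those of exomePeak. The sources used here give neither the exomePeak version nor how replicates were pooled. Fragments were about 150 nt long, per the labels. Per the file headers, the authors' deposited tables give a p-value for each peak, a fold enrichment (a ratio), a log2 fold change between genotypes, and log10 p-values and FDRs, treated as scores.

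Host genes were named through the Entrez identifier in the annotation (1547 iNKT and 1884 DP members matched RefSeq, 23 and 17 did not and keep the authors' symbol). Removing repeated coordinates took 24 iNKT and 5 DP listings out of the tables. Overlaps used bedtools 2.31.1 and needed 1 or more exonic bases in common, strand included. For pairs each iNKT member was matched to the DP member with most shared bases, and each DP member was used once. The genes named are the 8 smallest FDRs and 6 largest changes in each direction, the 6 most enriched and 6 longest members, the genes with most members, and list members that passed. The members and lists were chosen with earlier results of these data known. Scripts were tested on simulated data. Versions were matplotlib 3.10.9, SciPy 1.17.1, pandas 2.3.3, numpy 2.4.6 and Python 3.11.15. Alternatives varied the FDR threshold, the size of change, the strength of the peak, the exons counted, the naming of genes and the overlap rule. No genome was used here, so motifs in most peaks, exon lengths and distances to splice sites were not analysed here.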

Additional observations from a re-analysis of the deposited data

How the results depend on the processing

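Of 62 alternative values for 12 results, 39 stayed close to the value reported and 23 moved. Counts, shares, lengths and enrichments cannot change sign, and the median log2 fold changes, which can, did not. Keeping repeated coordinates gave the reported value in every case, so those alternatives could only add to the values that stayed close. The count of lower iNKT members stayed between 260 and 386. With peaks limited to a peak FDR of at most 1e-10 the share was 34.6% (346 of 999 members), against 22.5% of all members, and over all iNKT peaks 32.4% under the limit and 19.8% without it. Higher iNKT members numbered 50 of 999 (5.01%) under that limit and 44 of 1049 (4.19%) at a fold enrichment of at least 4. The shares over all iNKT peaks were 5.73% and 4.69%. Without a limit 5.54% of members and 5.84% of all iNKT peaks were higher. With the peak FDR limit the iNKT medians were -1.79 for log2 fold change, 7.4 for enrichment and 240 nt for length, and the DP medians 0.0513, 5.17 and 449 nt; the limit keeps the strongest peaks. The DP median enrichment was 4.11 when exons next to either end of the transcript were left out. Lower DP members numbered 1 at an FDR of 0.01, 16 at 0.1 and 2 with a change of at least 2-fold. With the peak FDR limit they numbered 4 of 532 (0.752%), against 1.88% of all DP peaks under it. At a fold enrichment of at least 4 they numbered 1 of 1031 (0.097%), against 0.193%. Without a limit 0.368% of members and 0.743% of all DP peaks were lower. Higher DP members numbered 9 at an FDR of 0.1 and 0 at 0.01, with the 2-fold change, at a fold enrichment of at least 4 and where the authors' named gene had to overlap the peak. The overlapped share was 48.3% of iNKT and 19.1% of DP members when 50% or more of the member had to be shared, and 38.7% and 29.6% when members alone counted as partners. Limits on the peak leave fewer members to count, and beyond that the cause of these moves was not tested. The alternative that joined overlapping members was chosen after seeing the data. No paired analysis was possible because the tables hold no values per library, and no library could be left out for the same reason. The share of peaks holding GGACT and its alternatives were not run because no genome was used here. The direction of the log2 fold change, the protocol of each cell type and the depth per library limit every comparison above.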

Other observations

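After overlapping listings were joined, Spen had 14 such peaks in iNKT cells (5 lower), Kmt2d 8 (5 lower and 1 higher) and Rnf213, a large ubiquitin ligase gene, 7 (1 lower). Ice1, a subunit gene of the little elongation complex, and Kmt2b had 6 each, of which 3 and 4 were lower. Akap13, Helz2, Hivep3, Prr12, Rai1, Son and Zfp646 also had 6 each, of which 3, 1, 1, 2, 2, 5 and 2 were lower. Over all iNKT peaks 19.8% were lower and 5.84% higher. In DP cells Macf1, which encodes a very large linker of microtubules and actin, had 10. Aspm, a spindle pole gene, Hivep1, Kmt2a and Prr14l had 8 each and Ash1l 7. None of these DP peaks passed, against 0.743% lower and 0.483% higher among all DP peaks. Spen, Kmt2d and Rnf213, the 3 leading genes of iNKT cells, had 6 peaks each in DP cells, while Macf1 had 3 in iNKT cells, Aspm 0, Hivep1 4, Kmt2a 5, Prr14l 1 and Ash1l 2.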
